A study of Mus musculus with 2 samples.

Results

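The cells described here are the cultured neural stem/progenitor cells (NSPCs) that the deposited per-cell annotation places in G2/M phase, 95 cells of the deposited set, against 132 in G1 and 77 in S phase. Plate 1 held 57 of them and plate 2 held 38. The phase of each cell follows from 2 deposited scores, 1 for S-phase genes and 1 for G2/M genes: a cell is in G2/M where its G2/M score is above 0 and above its S score, which gives the deposited phase of every cell. The score genes therefore chose the cells, and their levels are given below without a test. The G2/M cell nearest to the boundary lay 9.3e-05 above it and the next 0.0036 above it, while the nearest cells outside had margins of -0.0089 and -0.014. Within 0.1 of the boundary lay 18 of the 95 cells, and 22 cells of other phases.

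The NSPCs came from the subventricular zone (SVZ) of 6- to 8-week-old C57/Bl6 male mice and were expanded in medium with EGF and FGF-2. All cells on both plates carried PLIN2-GFP, a fluorescent fusion of the lipid droplet coat protein perilipin 2 stably introduced with a retrovirus, so they are 1 engineered line of pooled animals in culture. Live cells with GFP signal in the lowest or the highest 25% were sorted into 384-well plates and sequenced by SORT-seq, a plate-based method that counts transcripts by unique molecular identifiers (UMIs) near their 3′ end. No treatment or genotype separated the cells, so the groups were phase, PLIN2-GFP category and plate.

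In G2 phase a cell that has copied its DNA builds up cyclin B and the kinases that drive mitosis, and in M phase it condenses its chromosomes, assembles the spindle, separates the sister chromatids and divides. Many of the genes for these steps are transcribed late in the cycle, through promoters that often carry CCAAT boxes and a cell cycle homology region (CHR), while genes for DNA replication are transcribed earlier, under E2F factors. Adult SVZ NSPCs cycle in culture as long as EGF and FGF-2 are present, and D-type cyclins link these growth signals to the G1 phase.

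Summing the counts of all cells of 1 phase on 1 plate gave 6 sums of 461195 to 768330 UMIs. The 2 G2/M sums held 604024 and 528822 UMIs on plates 1 and 2. A G2/M cell had a median of 9565 UMIs on plate 1 and 12902 on plate 2, which was 1.15 and 1.31 times the median of G1 cells and 0.870 and 0.843 times that of S cells. In depth the G2/M cells thus lay between G1 and S cells. The range over G2/M cells was 1236 to 29920 UMIs. Their median number of genes detected was 3478 on plate 1 and 4222 on plate 2. Mitochondrially encoded transcripts took a median of 11.9% and 11.8% of the UMIs of G2/M cells, against 14% and 13.8% in G1 and 11.8% and 11.3% in S cells. This share was near that of S cells and below that of G1 cells on both plates. The median doublet score of G2/M cells was 0.131 and 0.156, that of G1 cells 0.111 and 0.131, and that of S cells 0.156 and 0.144, and all deposited cells were called single cells by the authors. The 2 plates share 59 well barcodes, which are the barcodes of wells and not of cells sequenced in both libraries.

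The 4 markers used to describe the G2/M cells were high on both plates. *Top2a*, the topoisomerase that untangles sister DNA, stood at 942 and 923 CPM (counts scaled to a common library size) in the G2/M sums of plates 1 and 2, at 402 and 508 in S and at 86.7 and 107 in G1. *Ube2c*, a ubiquitin-conjugating enzyme of the anaphase-promoting complex, stood at 1051 and 1348 CPM in G2/M, 152 and 196 in S and 72.9 and 105 in G1. On each plate both fell from G2/M through S to G1. *Mki67*, the coat of mitotic chromosomes, stood at 416 and 398 CPM in G2/M, 143 and 196 in S and 23.4 and 34.4 in G1. For *Cenpf*, a kinetochore protein, the values were 358 and 378 CPM in G2/M, 63.7 and 82.4 in S and 24.8 and 22.3 in G1. Each of the 4 was higher in both G2/M sums than in any other sum, and all 4 are among the score genes that chose the cells. All 54 G2/M score genes of the Seurat lists that were measured were above G1 (median log2 fold change 3.22) and above S (1.55). The 45 tested S score genes had a median of 1.16 against G1 and of -0.94 against S, so the G2/M cells lay between G1 and S cells in these transcripts.

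The score genes with the largest mean CPM in the G2/M sums had these levels. The chromatin protein *Hmgb2* had 1168 and 1600.4 CPM in G2/M against 489.6 and 688 in S and 157 and 205 in G1. *Tpx2*, which activates Aurora A on the spindle, had 489 and 529.5 CPM in G2/M and 66.1 and 89.1 in G1. Both were lowest in G1. *Rangap1* (the GTPase activator of Ran) and *Ckap2* (a spindle protein) had 446 and 388 CPM and 536 and 553 CPM in G2/M. *Cbx5*, which encodes the heterochromatin protein HP1α and is in the same score list, differed least, with 603 and 730.3 CPM in G2/M and 438 and 604 in G1. Among the S score genes, *Pcna*, the sliding clamp of DNA polymerase, had 422 and 378 CPM in G2/M, below 722 and 614 in S and above 189.9 and 170.1 in G1, and *Rrm1*, a subunit of ribonucleotide reductase, had 439 and 469 CPM in G2/M and 399.6 and 458 in S.

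**Figure D1:**
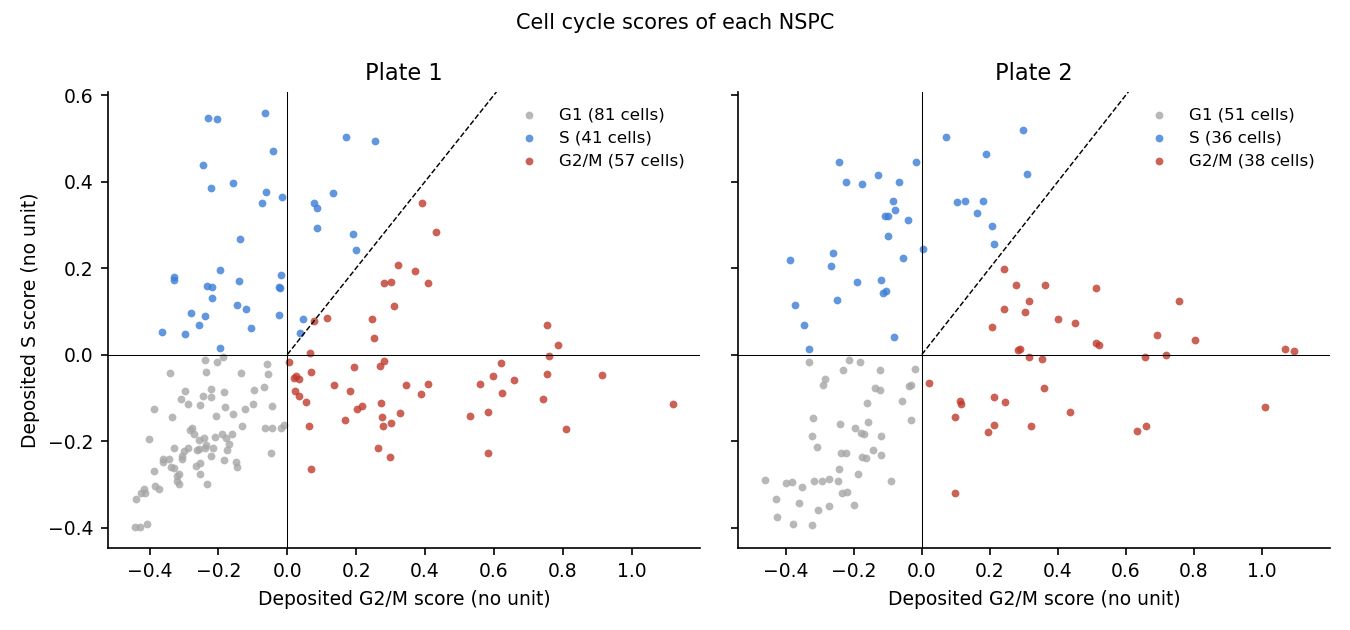
Deposited G2/M score (horizontal axis, no unit) against deposited S score (vertical axis, no unit) of each NSPC, 1 panel for each plate, with a point for each cell coloured by its phase and a dashed line where the scores are equal. The 95 G2/M cells spread from scores of 0.0036 to 1.12, and 34 of them also had an S score above 0.

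Of 13 NSPC markers listed, 12 had a row in the count table and passed the filter on low counts, while *Prom1* had no row. Their levels differed widely. Over all cells, *Sox2* had 93 counts and *Pax6* 126.8, against 10659.9 for *Fabp7* and 9831.9 for *Vim*. In G2/M cells the radial glial and stem cell genes *Fabp7* and *Vim* had 3311 and 3045 CPM and 2335 and 2974 CPM, and the intermediate filament *Nes* had 289.5 and 219 CPM. None of 6 microglia and blood markers had a row in the count table. Of 5 vascular markers *Pecam1* and *Col1a1* had rows, with 4.5 and 3 counts over all cells, and of 6 astrocyte markers *Gfap*, *Aqp4*, *S100b* and *Gja1* had 1.5, 16, 39 and 40.5 counts and did not pass the filter. The other 2 passed it, with 248 counts for *Aldh1l1* and 1236 for *Sox9*, which stem cells also express. *Aldh1l1* had 54.5 and 59.1 CPM in G2/M, 94.4 and 63.5 in S and 90.8 and 81 in G1. *Olig1* and *Olig2*, transcription factors of transit amplifying and oligodendrocyte progenitors, were expressed in all 6 sums, while the oligodendrocyte progenitor marker *Cspg4* had 98.5 counts over all cells. Of 7 neuronal markers only *Map2* passed the filter on low counts. *Olig1* had 1655 and 1769.7 CPM and *Olig2* 966 and 961 CPM in the G2/M sums.

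Against G1 cells, 638 genes outside the score lists were higher in G2/M cells (8.43% of 7568 tested) and 566 were lower (7.48%, or 15.9% in either direction), at an adjusted p under 0.1 in edgeR's quasi-likelihood test (plate as block, Benjamini-Hochberg adjusted), which is used for all adjusted p-values here. The p-values rest on how much the differences between phases varied across 2 plates of 1 line, since the plate was fitted as a block. With 2 residual degrees of freedom, the test takes much of the spread of a gene from the other genes. A small p or SE here therefore does not measure how closely the 2 plates agreed for that gene. The phases were themselves read from the RNA of the same cells, so genes that vary together with the score genes were set to differ. Against S cells, 174 genes were higher (2.3%) and 134 lower (1.77%, or 4.07% in either direction). With library sizes alone in place of TMM factors the second split was 143 higher and 178 lower. Both comparisons use the same G2/M sums. With 1 of the 6 sums left out, the counts ran from 246 to 709 higher and 163 to 635 lower against G1, lowest without the G2/M sum of plate 1, and from 47 to 201 and 15 to 161 against S, again lowest without that sum.

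The mitotic genes outside the score lists were higher in G2/M cells as a group. Of the 93 listed, 86 passed the filter on low counts, 79 rose against G1 (beside 8.43% of all genes), and their median log2 fold change was 2.35, against -0.02 over all genes tested outside the score lists. Against S, 45 rose (beside 2.3% of all genes, 22 without the G2/M sum of plate 1 and 18 with DESeq2) and 1 fell, with a median of 0.88 against 0.00 over all genes. The median was 2.20 on plate 1 and 2.17 on plate 2 against G1, and 0.83 on both plates against S. *Cep55* and *Depdc1a* had no count in either G1 sum, and with both set to the bound that 3 counts over the group allow the median stayed at 2.35.

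Of the 14 cyclins, kinases and their regulators, 13 rose against G1 and 7 against S. *Ccnb1*, cyclin B1, the partner of CDK1 at the entry into mitosis, stood at 623 and 677 CPM in the G2/M sums of plates 1 and 2, at 81.2 and 103 in S and at 63.3 and 60.8 in G1. The G2/M sums lay far above the S sums, which lay just above the G1 sums. Its log2 fold change was 3.37 ± 0.16 (SE) against G1 (adjusted p = 1.3e-16) and 2.81 ± 0.15 against S (adjusted p = 2.3e-14). *Plk1*, the kinase that promotes entry into mitosis and spindle assembly, stood at 274 and 230.3 CPM in G2/M, 43.9 and 32.6 in S and 6.88 and 20.3 in G1. It rose by 4.34 ± 0.29 against G1 and by 2.73 ± 0.24 against S (adjusted p = 6.9e-13 and 1.5e-09). Cyclin A2, *Ccna2*, which acts in S and G2, had log2 fold changes of 3.70 and 1.36, and the CDK phosphatase *Cdc25b* of 2.33 and 1.39, all past the test. The polo-like kinase of centriole duplication, *Plk4*, rose against G1 (2.30) and had a value of -0.01 against S. Genes of this list named without per-plate levels were chosen as examples of their role after the values were seen. *Mybl2*, the B-Myb factor of the late cell cycle, was the member lower than in S and fell by 1.42 ± 0.43, with 8.52 and 21.7 CPM in G2/M and 24.2 and 56.6 in S (adjusted p = 0.060), but it lost this call with DESeq2, with limma voom and without any 1 of the 4 G2/M and S sums.

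Of the 22 motors and spindle proteins, 18 passed the filter, 17 rose against G1 and 12 against S. *Aspm*, a protein of the spindle poles, stood at 203 and 279.5 CPM in G2/M, 54.9 and 44.6 in S and 23.4 and 16.2 in G1. *Prc1*, which bundles microtubules in the spindle midzone, stood at 487 and 526 CPM in G2/M, 173 and 211 in S and 74.3 and 105 in G1. For both genes the 3 phases did not overlap, with G1 lowest and G2/M highest. *Aspm* rose by 3.52 ± 0.26 against G1 and 2.29 ± 0.22 against S (adjusted p = 5.5e-12 and 1.0e-08). *Prc1* rose by 2.52 ± 0.16 and 1.40 ± 0.14 (adjusted p = 1.1e-13 and 1.8e-08). *Arl6ip1*, a membrane protein of the endoplasmic reticulum that stands in the same list, had its lowest level in S, with 421 and 337 CPM in G2/M, 233 and 203 in G1 and 134 and 80.6 in S. It rose by 1.84 ± 0.17 against S (adjusted p = 1.9e-09) and by 0.81 ± 0.14 against G1 (adjusted p = 0.00012).

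Under centromere and kinetochore 23 genes were listed, among them *Bora* and *Cip2a*. Of these, 22 passed the filter, 20 rose against G1 and 9 against S. The outer kinetochore gene *Spc25* had log2 fold changes of 3.54 against G1 and 1.90 against S, both past the test, while for the centromere genes *Cenpn* and *Cenpk*, which rose against G1 (1.58 and 2.21), the values against S were -0.21 and 0.08 and did not pass. Of 14 genes of the spindle checkpoint, separase and the anaphase-promoting complex, 12 passed the filter, 10 rose against G1 and 7 against S. *Mad2l1*, the checkpoint protein MAD2, rose by 1.98 and 1.06. *Pttg1*, securin, which holds separase inactive until anaphase, did not pass either test, with 71.5 and 80.7 CPM in G2/M and 74.3 and 113 in G1 (log2 fold change -0.27 ± 0.23, adjusted p = 0.52). Of 7 genes listed under cytokinesis, 6 rose against G1 and 5 against S, among them *Racgap1* of the centralspindlin complex (2.85 and 1.76). The kinesin *Kif3b*, which stands in the same list, had -0.53 ± 0.34 against G1 and did not pass (adjusted p = 0.37).

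All 13 condensin and chromatin genes rose against G1 and 5 rose against S. *H2ax*, the histone variant of the DNA damage response, stood at 531 and 671 CPM in G2/M, 160.3 and 165 in S and 63.3 and 129.6 in G1, and rose by 2.70 ± 0.17 and 1.90 ± 0.15 (adjusted p = 8.0e-14 and 2.3e-10). The condensin subunits *Ncapg* and *Ncapg2* rose by 3.26 and 3.02 against G1, and had 0.59 and -0.27 against S, which did not pass. The lamin gene *Lmnb1* rose in both comparisons, by 2.22 and 1.18.

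**Figure D2:**
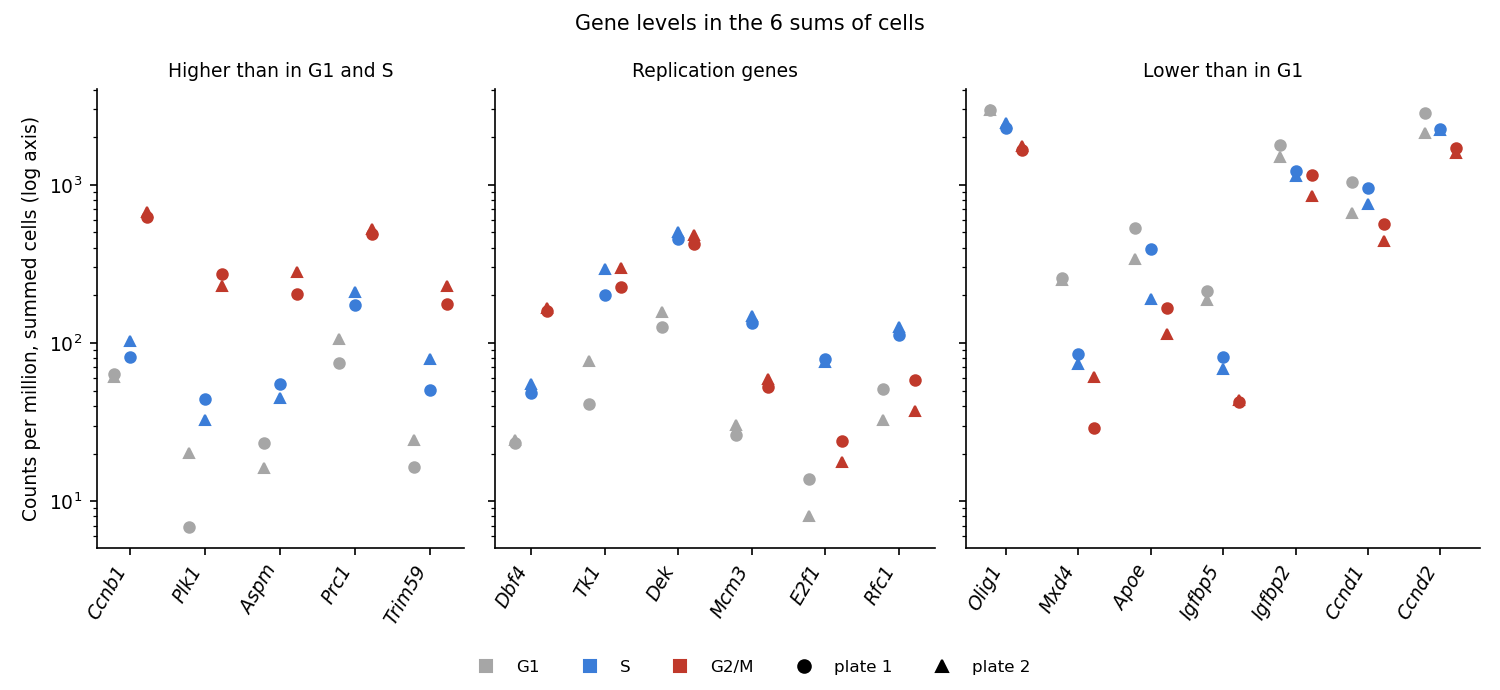
Levels of 18 genes in CPM (vertical axis, log scale) in the 6 sums of cells, with colour for phase, circles for plate 1 and triangles for plate 2. *Ccnb1*, *Plk1*, *Aspm*, *Prc1* and *Trim59* are highest in both G2/M sums, *Mcm3*, *E2f1* and *Rfc1* are highest in S, and on each plate the genes of the right panel are lowest in G2/M.

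For 4 of these genes the upstream sequence is given as an example. They are the mitotic genes outside the score with the smallest p against G1 that have an entry in the RefSeq promoter table (GRCm38.p6), and each run gives the 250 bases before the start of the gene, 5′ to 3′ on the strand of the gene. Capitals mark CCAAT boxes (CCAAT, or ATTGG where the box lies on the other strand) and the letters TTTAAA, a variant of the CHR. *Ccnb1* lies on chr13:100786487-100786736 (minus strand), *Prc1* on chr7:80294201-80294450 (plus strand, 1 of 2 entries), *Plk1* on chr7:122159185-122159434 (plus strand) and *Aspm* on chr1:139454523-139454772 (plus strand).
Ccnb1: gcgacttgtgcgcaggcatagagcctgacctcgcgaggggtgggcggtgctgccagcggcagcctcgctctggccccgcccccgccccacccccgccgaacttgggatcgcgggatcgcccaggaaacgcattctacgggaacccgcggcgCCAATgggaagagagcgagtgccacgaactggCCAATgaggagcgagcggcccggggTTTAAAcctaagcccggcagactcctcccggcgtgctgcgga
Prc1: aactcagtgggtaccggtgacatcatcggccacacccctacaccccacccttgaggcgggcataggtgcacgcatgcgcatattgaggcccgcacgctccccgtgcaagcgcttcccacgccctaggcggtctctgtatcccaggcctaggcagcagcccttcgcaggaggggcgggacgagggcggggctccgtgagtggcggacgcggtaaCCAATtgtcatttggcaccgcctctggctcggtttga
Plk1: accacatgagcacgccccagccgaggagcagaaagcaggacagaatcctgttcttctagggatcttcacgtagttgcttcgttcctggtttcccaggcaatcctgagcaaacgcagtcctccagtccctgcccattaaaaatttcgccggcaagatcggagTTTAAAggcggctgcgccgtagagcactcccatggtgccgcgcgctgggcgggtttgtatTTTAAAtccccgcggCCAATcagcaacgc
Aspm: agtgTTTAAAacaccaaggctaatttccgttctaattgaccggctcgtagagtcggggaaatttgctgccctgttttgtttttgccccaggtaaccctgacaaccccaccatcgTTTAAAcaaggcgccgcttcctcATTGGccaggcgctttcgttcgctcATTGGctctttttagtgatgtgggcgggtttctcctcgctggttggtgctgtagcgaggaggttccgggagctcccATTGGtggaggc

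The CCAAT boxes of *Ccnb1* began 99 and 67 bases before the start, and TTTAAA began 42 bases before it. *Plk1* held 1 CCAAT box, 14 bases before the start, and TTTAAA at 89 and 29 bases. *Aspm* held 3 boxes on the other strand, at 113, 88 and 12 bases, and TTTAAA at 246 and 136 bases, and *Prc1* 1 box at 37 bases. Promoters could be matched for 63 of the 79 mitotic genes that rose against G1, with 72 entries. CCAAT on either strand was in 61.1% of these 72 windows and in 33.8% of all 32851 promoters of the table, and at least 2 boxes were in 31.9% and 10.1%. The CHR letters TTTGAA were in 33.3% and 16.0%, TTTAAA in 12.5% and 12.1%, and the E2F letters TTTGGCGC or TTTCGCGC in 5.56% and 0.654%. Among 597 promoters of 432 genes that fell against G1, CCAAT was in 37.4%, TTTGAA in 9.72%, TTTAAA in 9.21% and the E2F letters in 0.838%. All motifs were searched on both strands, none contains another, and the shares describe letters in these windows, with no test.

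Replication genes outside the score were intermediate. Of 42 listed, 38 passed the filter, and 24 rose against G1 (beside 8.43% of all genes, median log2 fold change 1.14), whereas against S, 1 rose and 10 fell (beside 1.77% of all genes, median -0.63). The count of 10 was 4 without either G2/M sum, 3 without the S sum of plate 2 and 0 with DESeq2 (6 at an unadjusted p under 0.05). *Mcm3*, a subunit of the replicative helicase, stood at 52.8 and 59.1 CPM in G2/M, 134 and 148 in S and 26.1 and 30.4 in G1. It fell by 1.33 ± 0.23 against S (adjusted p = 0.00019) and rose by 0.98 against G1. *E2f1*, the transcription factor of the G1 to S transition, stood at 23.8 and 17.7 CPM in G2/M against 79 and 75.5 in S and fell by 1.89 ± 0.33 (adjusted p = 0.00023). *Rfc1*, of the clamp loader, had 57.9 and 37.4 CPM in G2/M, 112 and 125 in S and 50.9 and 32.4 in G1, with a difference from G1 that did not pass (0.17 ± 0.30), and it fell by 1.32 ± 0.26 against S (adjusted p = 0.00092). The call of *Rfc1* was lost without the G2/M or the S sum of plate 2.

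Other replication genes were near their S level in G2/M. Thymidine kinase, *Tk1*, had 227 and 297 CPM in G2/M, 199.8 and 295 in S and 41.3 and 77 in G1, and rose by 2.18 ± 0.19 against G1 with 0.09 ± 0.15 against S. *Dek*, a chromatin protein, had 421 and 482 CPM in G2/M and 455 and 504 in S, with 1.68 ± 0.14 against G1 and -0.09 ± 0.12 against S. The exception was *Dbf4*, the activator of the replication kinase CDC7, which was highest in G2/M, at 158 and 167 CPM, with 48.3 and 54.9 in S and 23.4 and 24.3 in G1. It rose by 2.76 ± 0.25 against G1 and by 1.65 ± 0.23 against S (adjusted p = 7.9e-10 and 5.3e-06), and was the 1 replication gene of the list that rose against S.

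The histone genes *Hist1h2ap* and *Hist1h2ao*, which encode core histone H2A for newly made chromatin, were the 2 genes with the smallest p against G1. *Hist1h2ap* stood at 1245 and 1701 CPM in G2/M, 2119 and 2119 in S and 143 and 136 in G1, and *Hist1h2ao* at 999.7 and 1128 in G2/M, 1405 and 1664 in S and 140.4 and 136 in G1. They rose by 3.37 ± 0.12 and 2.93 ± 0.12 against G1 (adjusted p = 1.3e-19 and 8.3e-19) and fell by 0.54 ± 0.09 and 0.53 ± 0.09 against S (adjusted p = 0.00015 and 0.00011). The fall of both was lost without the G2/M sum of plate 1. These genes are near-identical copies, so how reads were divided between them is uncertain. Of 38 replication-dependent histone genes, 8 passed the filter. Against G1, 6 rose (beside 8.43% of all genes), and against S these 2 fell (beside 1.77% of all genes).

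Other genes that rose most clearly lay outside these lists. *Trim59*, a ubiquitin ligase, stood at 177 and 228 CPM in G2/M, 50.5 and 78.9 in S and 16.5 and 24.3 in G1, and rose by 3.31 ± 0.25 against G1 (adjusted p = 1.5e-11). *Ubald2* stood at 271 and 291 CPM in G2/M, 48.3 and 72.1 in S and 67.4 and 95.2 in G1, and rose by 2.21 ± 0.20 against S (adjusted p = 1.5e-09). *Dynll1*, a light chain of the dynein motor, rose by 0.78 ± 0.09 against S (adjusted p = 8.1e-07), from 652 and 640.0 to 1083 and 1132 CPM. For all 3 the G2/M sums lay above every S and G1 sum. *Slfn9* had its peak in S, at 101 and 115 CPM, and fell by 2.48 ± 0.31 to 20.4 and 17.7 in G2/M (adjusted p = 1.1e-06), with 6.88 and 8.10 in G1.

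Tubulins, the subunits of the spindle microtubules, passed the filter in 8 of 13 listed cases, and 6 rose against G1 and 6 against S (medians 1.00 and 0.45), beside 8.43% and 2.3% of all genes. *Tuba1b* stood at 576 and 467 CPM in G2/M, 397 and 299 in S and 197 and 217 in G1, and rose by 1.35 ± 0.14 against G1 (adjusted p = 6.6e-09). *Tuba1c* stood at 100.5 and 37.4 CPM in G2/M and at 11 and 12 in S, a rise of 2.50 ± 0.44 (adjusted p = 0.00024), and the 2 G2/M sums differed from each other by more than the S sums did. Against S, the count of tubulins that rose was 0 without the G2/M sum of plate 1, 2 without that of plate 2, 1 without the S sum of plate 2, 1 without the block and 0 with DESeq2 (6 at an unadjusted p under 0.05).

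Of the 3 D-type cyclins, *Ccnd1* and *Ccnd2* fell in G2/M cells and *Ccnd3* did not pass. *Ccnd2*, cyclin D2, stood at 1698 and 1579 CPM in G2/M, 2251 and 2219 in S and 2858 and 2137 in G1, and fell by 0.60 ± 0.08 against G1 and 0.45 ± 0.08 against S (adjusted p = 1.0e-06 and 0.00030). *Ccnd1*, cyclin D1, stood at 565 and 443 CPM in G2/M, 959.5 and 760.1 in S and 1044 and 658 in G1, and fell by 0.75 ± 0.10 and 0.78 ± 0.11 (adjusted p = 2.5e-06 and 4.7e-06). For both cyclins each G2/M sum was below every S and G1 sum. *Ccnd3*, cyclin D3, had 11.9 and 9.84 CPM in G2/M, 28.5 and 20.6 in S and 16.5 and 18.2 in G1 (-0.63 ± 0.55 against G1, adjusted p = 0.54, and -1.14 ± 0.53 against S, adjusted p = 0.32). Without the block or without the G2/M sum of plate 1, *Ccnd2* was not called against S. Of the 15 listed D-type cyclins, CDK inhibitors and related genes, 12 passed the filter. Against G1, 3 rose and 2 fell (*Ccnd1* and *Ccnd2*), beside 8.43% and 7.48% of all genes. The CDK4 and CDK6 inhibitor *Cdkn2c* rose, with 211 and 187 CPM in G2/M and 64.7 and 72.9 in G1 (1.56 ± 0.20, adjusted p = 4.6e-07), and the retinoblastoma relative *Rbl1* (p107) rose by 2.00 ± 0.36 (adjusted p = 0.00013). *Cdkn1b*, the CDK inhibitor p27, had 223 and 207 CPM in G2/M and 135 and 164 in G1 and passed in the blocked model (0.55 ± 0.17, adjusted p = 0.029) but not with DESeq2, without the block or without either G2/M sum or the G1 sum of plate 1. Against S, the atypical cyclin *Ccng2* rose by 2.42 ± 0.50, from 11 and 5.15 to 27.2 and 57.1 CPM (adjusted p = 0.0023). This call was lost with DESeq2 and without the G2/M or the S sum of plate 2.

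*Mxd4*, *Igfbp5*, *Igfbp2*, *Apoe* and *Olig1* were among the genes that fell against G1. *Mxd4*, a MAX partner that opposes MYC, stood at 29 and 61 CPM in G2/M, 85.6 and 73.8 in S and 257 and 251 in G1, and fell by 2.53 ± 0.22 (adjusted p = 3.4e-10). *Igfbp5*, an insulin-like growth factor binding protein, stood at 42.6 and 43.3 CPM in G2/M and 212 and 186 in G1, a fall of 2.21 ± 0.22 (adjusted p = 2.6e-09). *Igfbp2*, of the same family, had 1144 and 852 CPM in G2/M, 1221 and 1134 in S and 1774 and 1495 in G1 and fell by 0.71 ± 0.08 against G1 (adjusted p = 1.5e-07), with -0.25 ± 0.09 against S (adjusted p = 0.13). In all 3 the G2/M sum was the lowest on each plate. The lipid carrier *Apoe* stood at 167 and 114 CPM in G2/M, 395 and 189 in S and 533 and 338 in G1, and fell by 1.63 ± 0.15 and 1.03 ± 0.16 (adjusted p = 1.0e-09 and 7.1e-05). The progenitor factor *Olig1* stood at 1655 and 1769.7 CPM in G2/M, 2294 and 2462 in S and 2948 and 2975 in G1, a fall of 0.79 ± 0.07 against G1 and 0.47 ± 0.07 against S (adjusted p = 2.1e-10 and 1.8e-05). Of 8 oligodendrocyte lineage markers 3 were tested, and *Olig2* also fell against G1 (-0.54 ± 0.09), while *Cspg4* had 0.48 ± 0.40 and did not pass. *Apoe* was not called against S without the block or without the G2/M sum of plate 1.

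Further genes with the smallest p among those that fell were *Gstm1*, a glutathione transferase, with 244 and 215 CPM in G2/M and 526 and 425 in G1 (-1.05 ± 0.13), and *Pik3r3*, a regulatory subunit of phosphoinositide 3-kinase, with 49.4 and 57.1 CPM in G2/M, 164 and 198 in G1 and 24.2 and 46.3 in S (-1.76 ± 0.22 against G1). *Pik3r3* was highest in G1, and its G2/M and S levels did not differ by the test. *Ndfip1*, an adaptor of ubiquitin ligases, had 402 and 543 CPM in G2/M and 776 and 952 in G1 (-0.88 ± 0.10). The adjusted p of these 3 was 3.1e-07, 3.1e-07 and 8.7e-08. Against S, the secreted peptide *Apln* (apelin) fell by 1.89 ± 0.27, from 143 and 225 to 47.7 and 53.1 CPM, and *Vav3* fell by 0.96 ± 0.16, from 277 and 300.3 to 145 and 154 CPM (adjusted p = 8.9e-06 and 0.00011). *Vav3* had 322 and 294 CPM in G1, close to its S level. The call of *Apln* was lost without the G2/M sum of plate 1.

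Immediate early genes, which respond within minutes to growth factors, passed the filter in 16 of 20 listed cases, and 9 fell against G1 (beside 7.48% of all genes), with a median of -0.75. *Fos* stood at 233 and 232 CPM in G2/M, 288 and 379 in S and 509 and 381 in G1, and fell by 0.95 ± 0.15 against G1 (adjusted p = 2.3e-05). *Dusp6*, the phosphatase that feeds back on ERK, had 259 and 144 CPM in G2/M and 455 and 360.5 in G1 and fell by 1.02 ± 0.14 (adjusted p = 3.0e-06). *Jund* had 184 and 219 CPM in G2/M and 154 and 166 in G1 and did not pass (0.32 ± 0.16). The count of immediate early genes that fell was 3 without the G2/M sum of plate 1, 5 without the block, 5 after thinning, 3 in cluster 0 and 2 with DESeq2. Against S, *Dusp6* and *Fos* fell (-0.55 and -0.54), but both calls were lost with DESeq2, without the block and without either G2/M sum.

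Most mitochondrially encoded genes tested fell against G1, while most nuclear genes of oxidative phosphorylation did not pass. Of 25 mitochondrially encoded genes, 15 passed the filter and 14 fell against G1 (beside 7.48% of all genes), with a median log2 fold change of -0.28 and a range of -0.50 to -0.17. The ribosomal RNA *mt-Rnr2* had 21947 and 19906 CPM in G2/M, 21976 and 20008 in S and 27294 and 25125 in G1, and fell by 0.33 ± 0.04 (adjusted p = 5.2e-07). *mt-Nd4*, of respiratory complex I, fell by 0.31 ± 0.05 (adjusted p = 1.4e-05). The count of 14 was 6 without the block, 6 in cells of the deposited cluster 1 and 12 with DESeq2. Against S, 1 of the 15 fell and the median was -0.01. By name, 91 nuclear genes of oxidative phosphorylation were listed, some of them assembly factors such as *Sdhaf1* or pseudogenes such as *Cox7c-ps1*. Of these, 83 passed the filter and 18 fell against G1 (median -0.21), among them *Cox7c* and *Sdha* (-0.31 ± 0.07 and -0.54 ± 0.15). Against S, 1 rose (median 0.09). That count of 18 was 0 without the G2/M sum of plate 1, 3 without that of plate 2 or without either G1 sum, 2 without the block and 0 with DESeq2.

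Of 17 glycolytic enzymes, 15 passed the filter and 8 fell against G1 (beside 7.48% of all genes), with a median of -0.39. The aldolase *Aldoc* stood at 683 and 421 CPM in G2/M and 878 and 715 in G1 (-0.53 ± 0.11, adjusted p = 0.00071), and the enolase *Eno1* at 778 and 563 in G2/M and 1007 and 812 in G1 (-0.44 ± 0.10, adjusted p = 0.0017). Against S the median was -0.07 and no enzyme passed in edgeR (1 lower at an unadjusted p under 0.05), DESeq2 or limma voom. The count against G1 was 3 without either G2/M sum, 4 without the G1 sum of plate 2, 0 without the block, 3 in cluster 0 and 1 with DESeq2.

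Of 26 genes of lipid droplets and fatty acid metabolism, 20 passed the filter, and 2 fell against G1, beside 7.48% of all genes. These were the lipases *Mgll* and *Pnpla2* (-0.97 ± 0.31 and -0.97 ± 0.33, adjusted p = 0.034 and 0.054), both calls lost with DESeq2 and without either G2/M sum. *Plin2* had 64.7 and 29.5 CPM in G2/M, 41.7 and 30.9 in S and 56.4 and 44.6 in G1, so the phases overlapped and the difference of -0.08 ± 0.29 from G1 did not pass (adjusted p = 0.91). The desaturases *Scd1* and *Scd2* rose against S (0.48 ± 0.15 and 0.23 ± 0.07, adjusted p = 0.072 and 0.056), and neither passed with library sizes alone, with DESeq2 or without the G2/M sum of plate 1. *Fasn*, fatty acid synthase, had 399 and 384 CPM in G2/M, 422 and 379 in S and 312 and 332 in G1 and passed neither test.

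NSPC markers moved in both directions. Of 13 listed, 2 rose and 3 fell against G1, beside 8.43% and 7.48% of all genes. None passed against S in edgeR (1 higher and 3 lower at an unadjusted p under 0.05) or DESeq2. In limma voom 1 fell against S, and with library sizes alone 3 did. *Ptprz1*, a receptor phosphatase of glial progenitors, had 593 and 439 CPM in G2/M and 949 and 691 in G1 and fell by 0.67 ± 0.10 (adjusted p = 9.4e-06). The glutamate transporter *Slc1a3* fell by 0.42 ± 0.08 (adjusted p = 0.00037), a call lost without the G2/M sum of plate 2. Of 20 genes of the Notch pathway and Id family, 14 passed the filter and 2 fell against G1 (beside 7.48% of all genes). These were *Hes6* and the ligand *Jag1* (-0.67 ± 0.16 and -1.52 ± 0.42). Both calls were lost in DESeq2 and without the plate 1 sum of G2/M or of G1. *Sox9* and *Map2* had -0.14 ± 0.14 and -0.17 ± 0.13 against G1 and did not pass.

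The 85 genes listed by name as cytosolic ribosomal proteins, which include paralogs such as *Rpl7l1* and *Rpl36al*, differed by small amounts. Against G1, 5 rose and 1 fell of 81 that passed the filter (median 0.07), beside 8.43% and 7.48% of all genes. The count of 5 was 0 without the block or without the G2/M sum of plate 2, 2 without any other 1 of the G2/M and G1 sums, 1 with DESeq2, 1 after thinning, 0 in cluster 1 and 9 with library sizes alone or without either S sum. Against S, 7 rose (beside 2.3% of all genes, median 0.13, 79 of 81 above 0). *Rpl23a* had 841 and 1022 CPM in G2/M and 621 and 635 in S (0.57 ± 0.10, adjusted p = 0.00023). The count of 7 was 2 and 1 without the G2/M sum of plate 1 and plate 2, 13 and 2 without the S sum of plate 1 and plate 2, 2 with DESeq2 and 1 without the block.

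**Figure D3:**
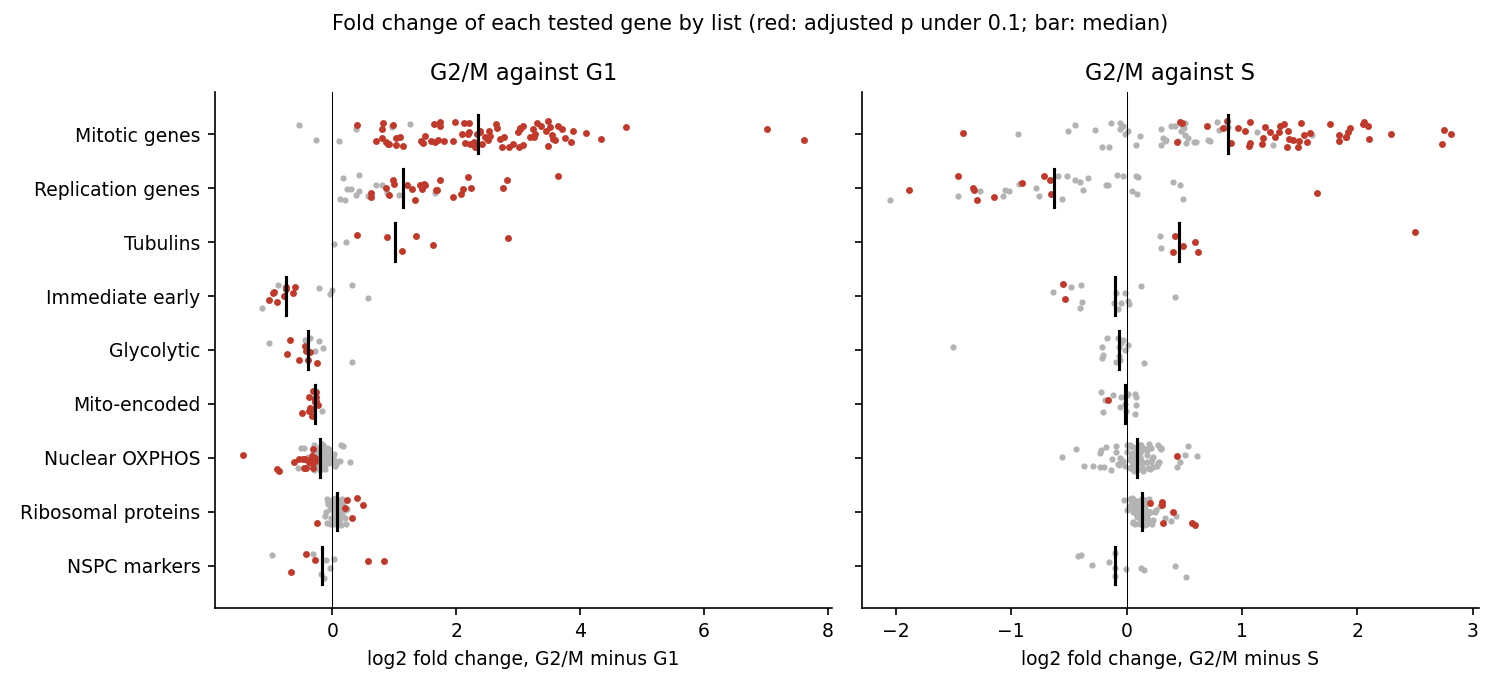
Log2 fold change of each tested gene (horizontal axis) by list (vertical axis), G2/M minus G1 on the left and G2/M minus S on the right, with genes past an adjusted p of 0.1 in red, others in grey and a bar at the median. The mitotic genes centre on 2.35 against G1 and 0.88 against S, and the replication genes on 1.14 and -0.63; the 2 mitotic genes farthest right against G1 are *Cep55* and *Depdc1a*.

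The G2/M score ran as a gradient through the cells. The summed level of the mitotic genes outside the score had a median of 124 UMIs per 10000 UMIs in G2/M cells of plate 1 and 137 on plate 2, against 80.8 and 82.4 in S cells and 42.7 and 49.3 in G1 cells. The ranges overlapped, from 40.5 to 226 in G2/M cells and from 21.5 to 84.6 in G1 cells of plate 1, and from 80.01 to 221 and 20.8 to 96.5 on plate 2. S cells ranged from 37.7 to 145 on plate 1 and from 39.4 to 160 on plate 2, so some lay above the G2/M median. Across cells, the correlation (Pearson's r) of the score with the log2 level of these genes was 0.859 over the 179 cells of plate 1 and 0.850 over the 125 cells of plate 2, and within the G2/M cells it was 0.801 (57 cells) and 0.886 (38 cells). The points of a plate share a library and differ in depth. Within G2/M cells the score also rose with the UMIs of the cell, with r of 0.713 on plate 1 and 0.531 on plate 2, and fell with the mitochondrial percentage, with r of -0.628 and -0.400. In cells thinned to 5000 UMIs, which leaves out 16 of the G2/M cells, r between score and mitotic level was 0.774 and 0.837 within G2/M cells.

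**Figure D4:**
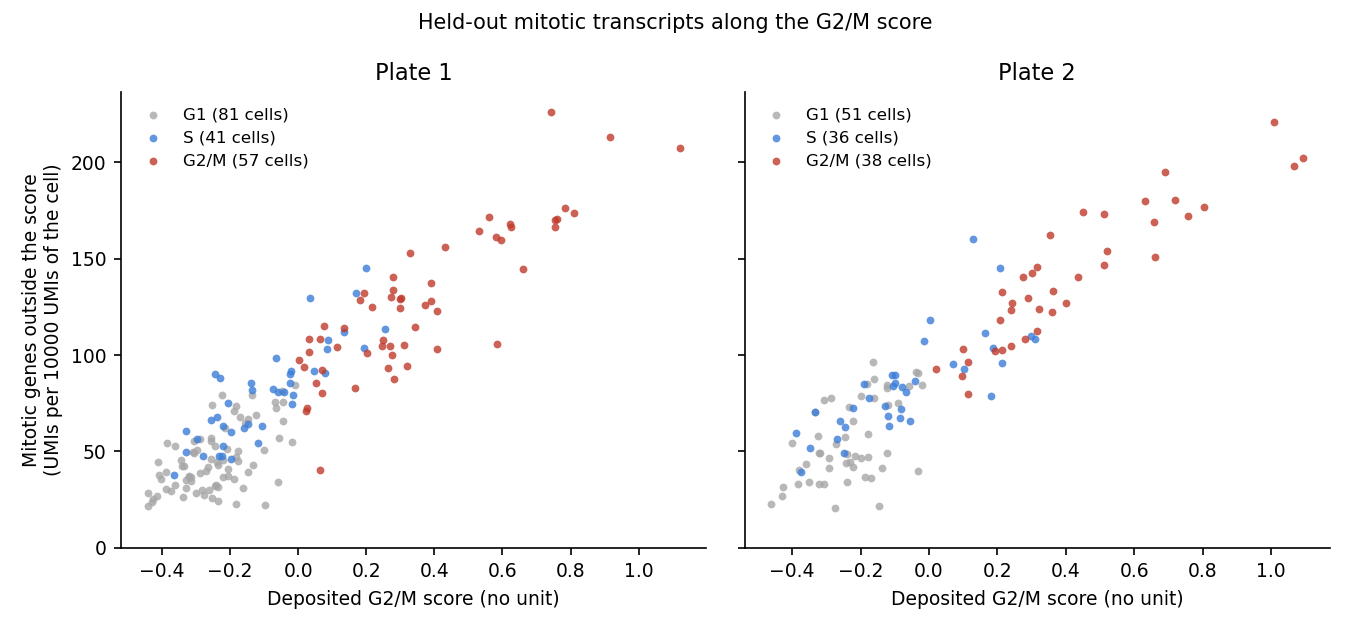
UMIs of the mitotic genes outside the score per 10000 UMIs of the cell (vertical axis) against the deposited G2/M score (horizontal axis, no unit), 1 point for each cell coloured by phase, 1 panel for each plate. The level rises along the score within the G2/M cells, whose medians are 124 and 137. The G1 cells overlap with the lowest of them, and the S cells reach 145 and 160, above these medians.

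The genes outside the score that followed it most closely over all cells were *Ccnb1* (r = 0.743 on plate 1 and 0.769 on plate 2), *Plk1*, *H2ax*, *Aspm*, *Trim59*, *Ccna2*, *Spc25*, *Prc1*, *Kif22* and *Pif1*, the last at 0.609 and 0.620. Within G2/M cells alone, ranked among genes with a mean of at least 50 CPM in the G2/M sums, the order was another. The nuclear importin *Kpna2*, whose reads its near-identical copy *Gm10184* may share, came first, with r of 0.694 and 0.718, ahead of *Ccnb1* (0.552 and 0.742). In thinned G2/M cells *Kpna2* had 0.568 and 0.507 and *Ccnb1* 0.482 and 0.601. *Ccna2* had 0.284 and 0.520 within G2/M cells, but -0.453 and 0.138 after thinning. Among the genes past 50 CPM, mitochondrially encoded ones had some of the lowest values within G2/M cells. For *mt-Cytb* r was -0.643 and -0.449, and -0.526 and -0.425 after thinning.

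By PLIN2-GFP category, the G2/M cells comprised 25 low and 32 high ones on plate 1, and 23 low and 15 high ones on plate 2. On plate 1, G2/M cells made up 26.3% of the low and 38.1% of the high category, with exact 95% binomial intervals, which cover counting error only, of 17.8% to 36.4% and 27.7% to 49.3%. On plate 2 the shares were 31.9% and 28.3% (21.4% to 44.0% and 16.8% to 42.3%), so the direction differed between plates. With 2 plates for each category, no exact test over plates can reach 0.05, and none was run. High G2/M cells had more UMIs than low ones, with medians of 10966 and 7258 on plate 1 and 14807 and 12756 on plate 2, and higher G2/M scores (medians of 0.315 and 0.271 on plate 1, 0.399 and 0.289 on plate 2). No row of wells held both categories, so category and place on the plate cannot be told apart.

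Within G2/M cells, 19 genes outside the score lists were higher in the high category (0.407% of 4669 tested) and 26 were lower (0.557%). This comparison rests on 4 sums of 202948 to 401631 UMIs with 1 residual degree of freedom, and without the block it called 0 higher and 1 lower, with DESeq2 none (15 higher and 13 lower at an unadjusted p under 0.05), with library sizes alone 17 higher and 10 lower, and with 1 of the 4 sums left out 2 to 7 higher and 3 to 12 lower. *Igfbp2* stood at 1373 and 1186 CPM in high and 933 and 665 in low G2/M cells of plates 1 and 2, a log2 difference of 0.69 ± 0.13 (adjusted p = 2.6e-05). *Car2*, carbonic anhydrase 2, stood at 326 and 441 CPM in high and 189.9 and 170.2 in low cells (1.10 ± 0.23, adjusted p = 0.00087), and the protocadherin *Pcdhgc3* at 226 and 186 in high and 83.8 and 69.6 in low cells (1.42 ± 0.32, adjusted p = 0.0031). *Gm49980* had 280.1 and 314 CPM in high and 78.2 and 131 in low cells (1.49 ± 0.28, adjusted p = 3.5e-05). In these 4 genes both high sums were above both low sums.

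*Hist1h2ap* had 1626 and 1937 CPM in high and 743 and 1694 in low cells (0.60 ± 0.11, adjusted p = 1.7e-05), so the low sum of plate 2 overlapped with the high sums. Among the genes that were lower, *Sox4*, a transcription factor of neuronal commitment, stood at 541 and 323 CPM in high and 1167 and 708 in low cells (-1.12 ± 0.15, adjusted p = 5.0e-10), and *Nnat*, neuronatin, at 286 and 118 in high and 648 and 437 in low cells (-1.43 ± 0.20, adjusted p = 2.8e-09). The high sums of both genes lay below the low sums. *mt-Rnr2*, *mt-Rnr1* and the gene ENSMUSG00000106106.3 were lower in high cells (-0.49 ± 0.04, -0.46 ± 0.05 and -0.49 ± 0.04), along with 4 more of the 15 mitochondrially encoded genes tested. For *mt-Rnr1* the difference was -0.19 on plate 1 and -0.73 on plate 2, a gap wider than its SE, which draws on other genes. *Tcf4* stood at 683 and 609 CPM in high and 799 and 824 in low cells and did not pass (-0.33 ± 0.15, adjusted p = 0.48). *Plin2*, the gene of the fusion protein, did not pass the filter, with 33 and 7.5 counts in high and 4.5 and 7 in low cells of plates 1 and 2. Of 75 mitotic genes tested, 14 were higher and 4 lower in edgeR at an unadjusted p under 0.05 (median 0.15). Over all 4669 genes tested outside the score lists, 191 were higher and 184 lower at that level. No mitotic gene passed after adjustment in edgeR or DESeq2, and 3 higher and 1 lower passed in limma voom. None of 25 replication genes passed in any of these tools, or in edgeR at an unadjusted p under 0.05 (median 0.08).

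**Figure D5:**
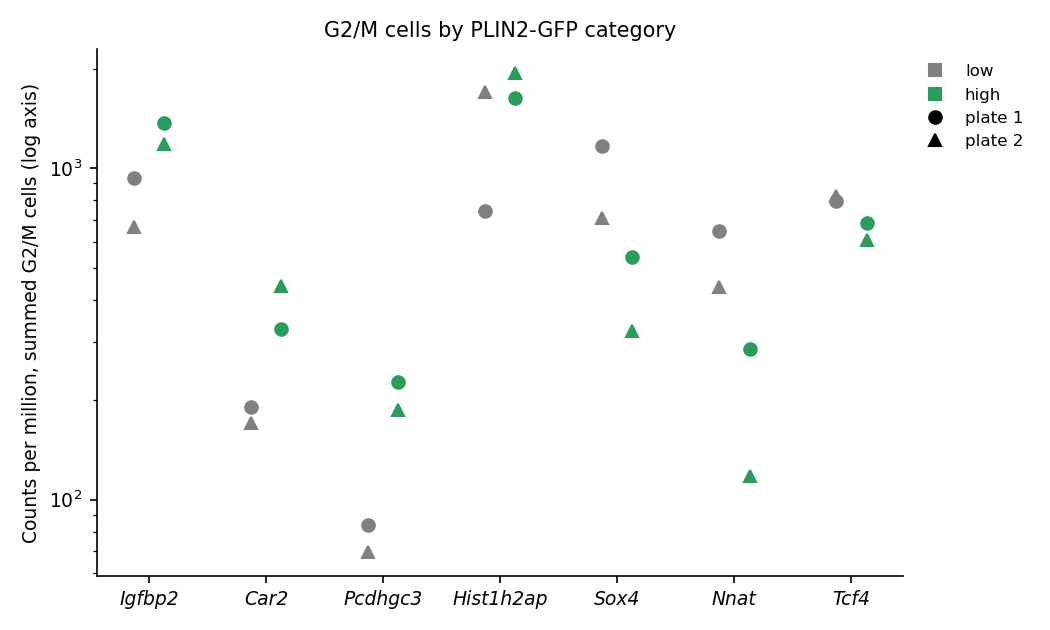
Levels of 7 genes in G2/M cells in CPM (vertical axis, log scale), low in grey and high in green, with circles for plate 1 and triangles for plate 2. *Igfbp2*, *Car2* and *Pcdhgc3* are higher in both high sums, *Sox4* and *Nnat* are lower in both, and *Hist1h2ap* overlaps between categories.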

How the data were processed

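Single-cell RNA-seq (SORT-seq) was deposited for 2 plates of PLIN2-GFP NSPCs. The authors assigned the transcript read to GRCm38 with Salmon (alevin in the processing notes) and counted UMIs per well, and the deposited table of 15046 genes holds the resulting estimated counts, not normalized. Of its values above 0, 87.1% were whole within 1e-06, and the gene annotation was not given in the sources used here. The deposited annotation holds, made by the authors (with Seurat, except the doublet score, whose tool was not given in the sources used here), the genes detected per cell as counts, mitochondrial percent, ribosomal fraction, doublet score as a fraction, the S and G2/M scores, the phase, and clusters 0 and 1. The authors' methods state a limit of under 20% mitochondrial counts, and 11 of the deposited cells (5 in G2/M) lie above it. Columns of the table carry no name and were joined to cells by total and number of genes, with 0 left unjoined.

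Counts were summed over cells of 1 phase (or 1 phase and category) and plate, rounded, and tested with edgeR 4.0.16 (R 4.3.3; glmQLFit and glmQLFTest, TMM factors, filterByExpr) with the plate as a block, which leaves 2 residual degrees of freedom for phases and 1 for categories. The block comes from the design, since sums of 1 number are of 1 plate; their deviations correlated with r of 0.214 (G2/M and G1), 0.197 (G2/M and S) and 0.168 (high and low) over genes. Adjusted p-values are Benjamini-Hochberg values, called under 0.1. CPM were computed from these counts with TMM factors. Genes of the Seurat S and G2/M lists, older and updated versions together (46 and 54 in the table), were left out of all counts of called genes. The authors' methods do not name the list they used. Seurat 5.3.0 with the updated version alone gave the deposited phase for 97.4% of cells and 92 of the 95 G2/M cells. The scripts were tested on simulated data, where most phase changes of 1 or more on the log2 scale were called and most of the smallest simulated ones were missed. DESeq2 1.42.0 and limma 3.58.1 (voom) were alternatives, as were other scalings, filters and cell sets, cells thinned to 5000 UMIs (seed 11), and leaving out each sum. Cells were neither filtered further nor checked again for doublets.

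The members and gene lists were chosen with earlier results of these data known. Named were, for each phase comparison, the 8 smallest p-values per direction (5 for categories) among genes with 1 direction on both plates, up to 3 members of each list per direction, the score genes with the largest CPM, and the genes most correlated with the score. Cells under 20% mitochondrial counts, the TTTAAA motif, the test of the category difference between phases and extended histone and ribosomal lists were added after seeing the data. Promoters and motifs came from RefSeq (GRCm38.p6). Some listed genes are not reported here.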

Additional observations from a re-analysis of the deposited data

Results flagged for a closer look

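*Gadd45g*, a growth arrest and DNA damage gene, differed between PLIN2-GFP categories in G2/M cells by another amount than in G1 cells. In the G2/M sums of plates 1 and 2 it stood at 89.6 and 67.4 CPM in high and at 239 and 351 CPM in low cells, with both high sums below both low sums. In G1 it stood at 176 and 227 CPM in high and at 206 and 66.1 CPM in low cells, so the categories overlapped. In S it stood at 57.1 and 113 CPM in high and at 138 and 77.1 CPM in low cells. In both G1 and S, high was below low on plate 1 and above it on plate 2, so the size of the difference between phases varied by plate. The log2 difference between high and low in G2/M less that in G1 was -2.42 ± 0.43 (edgeR's quasi-likelihood test over 12 sums, 4 residual degrees of freedom, Benjamini-Hochberg adjusted p = 0.0053). It was the 1 gene called of 5399 tested, with 247 at an unadjusted p under 0.05, and the test was added after seeing the data. Other tools were not run for this difference.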

How the results depend on the processing

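Against G1, the counts of 638 higher and 566 lower genes became 359 and 227 with no replicate block, 253 and 248 in cells thinned to 5000 UMIs, 198 and 207 in cells of cluster 1, 167 and 79 with DESeq2, and 246 to 709 and 163 to 635 with 1 sum left out. Against S, 174 and 134 became 77 and 40 with no block, 60 and 42 after thinning, 103 and 50 in cluster 0, 61 and 50 in cluster 1, 32 and 9 with DESeq2, and 47 to 201 and 15 to 161 with 1 sum left out, and the lower count was 78 with phases scored again and 85 at an adjusted p under 0.05. Between categories within G2/M, 19 and 26 became 0 and 1 with no block, 0 and 0 with DESeq2, 31 and 41 with limma voom, 6 and 6 without mitochondrially encoded genes, 9 and 12 after thinning, and 2 to 7 and 3 to 12 with 1 sum left out, and the lower count was 10 with library sizes alone, 15 with no filter and 17 in cells under 20% mitochondrial counts. The cause of these moves was not tested, apart from the fewer cells, sums or genes that thinning, clusters and left-out sums use.

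Of the genes named against G1, 37 of 54 were called with DESeq2 and 40 of 54 without the block, and of those against S, 20 of 37 and 22 of 37. All 10 named category genes lost their call in both. No named gene that passed reversed against G1, while *Fos* against S was 0.0311 in cluster 1. *Plin2*, which did not pass, reversed against G1 with phases scored again (0.10), in cluster 1 (0.57), without cells near a boundary (0.019), and without the G1 sum, the G2/M sum or all of plate 2 (0.09, 0.19 and 0.19, in a range over left-out sums of -0.56 to 0.19), and against S without the G2/M sum or all of plate 1 (-0.086 and -0.058, in a range of -0.086 to 0.67). With phases scored again after thinning, the median mitochondrial percentage of G2/M cells was 11.7 and 11.5, their doublet score on plate 1 was 0.156. In thinned cells with the deposited scores, the correlation of score and mitotic level over all cells of plate 2 was 0.837. Leaving out a whole plate gives a fold change and no test. The median of all genes moved by less than 0.1 under any scaling. Depth limits the low genes, which the filter left untested.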

Other observations

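The deposited clusters 0 and 1 divided the G2/M cells unevenly between categories. On plate 1, 10 low G2/M cells were in cluster 0 and 15 in cluster 1, against 20 and 12 high cells. On plate 2 the numbers were 5 and 18 low cells against 12 and 3 high cells. High cells were thus mostly in cluster 0 and low cells mostly in cluster 1 on both plates, with no test, since cells of 1 plate are not replicates.

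The level of replication genes outside the score followed the G2/M score less closely within G2/M cells than the mitotic level did, with r of 0.338 on plate 1 (57 cells) and 0.174 on plate 2 (38 cells). The S score of G2/M cells had r of 0.0115 and 0.166 with their G2/M score. Other genes high along the score within G2/M cells were *Arhgap11a* (0.571 and 0.722), the cohesin protector *Sgo2a* (0.571 and 0.651) and the kinesin *Kif18a* (0.519 and 0.701). In G2/M cells thinned to 5000 UMIs these were 0.398 and 0.359 for *Arhgap11a*, 0.401 and 0.520 for *Sgo2a* and 0.496 and 0.264 for *Kif18a*, and the score of G2/M cells also rose with their UMIs (r of 0.713 and 0.531).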
